A study of Mus musculus with 6 samples.

Results

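Car4, Spock2, Ivns1abp and Itm2a, 4 genes used as markers of brain capillary endothelium, were followed in RNA from endothelial cells sorted from mouse brain and from the unsorted brain suspension. The members were the rows of the deposited table with these gene symbols, 4 of 10989 genes. All 4 had passed the table's own minimum in both fractions, as 8509 of the 10989 genes had. The Positive group was 3 libraries from cells sorted as EGFP positive, CD31 positive and CD11b negative. The Input group was 3 libraries from the cell suspension before sorting. All 6 libraries came from brains of mice that carried both Tie2-cre and NuTRAP, carry WT in their titles and have the replicate numbers 1222, 1223 and 1227 in each fraction. The labels used here give no age. NuTRAP is a reporter that, once Cre has acted, tags ribosomes in green (EGFP) and the nuclear envelope in red. The Tie2 promoter, which drives Cre here, is known to act in endothelium and also in cells of the blood lineage. The Input suspension holds endothelial cells too, so a fold change is the level in sorted cells relative to a mixture that contains them. In these bulk samples, fewer cells of a type and less RNA per cell cannot be told apart.

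Brain capillaries form the blood-brain barrier, and their endothelial cells differ from those of arteries and veins in a graded way along the vessel. Carbonic anhydrase 4, the product of Car4, is anchored to the outer face of the plasma membrane and interconverts carbon dioxide and bicarbonate. Testican-2, the product of Spock2, is a secreted heparan sulfate proteoglycan of the SPARC family. Itm2a encodes a single-pass membrane protein with a BRICHOS domain. Ivns1abp encodes a BTB-kelch protein, first named for binding the influenza NS1 protein, that is tied to the actin cytoskeleton and to cullin 3.

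The libraries held between 4772866 and 52283556 estimated counts, with the fewest in both libraries of replicate 1223. Levels are given as CPM, the count scaled to library size with edgeR's TMM factors. The genes of the gate separated the fractions. Pecam1, which encodes CD31, had 1986, 2096 and 2031 CPM in Positive (replicates 1222, 1223 and 1227), against 266.3, 299.7 and 280.1 CPM in Input. Itgam, which encodes CD11b, had 88.0, 54.8 and 53.0 CPM in Positive, against 557.6, 274.1 and 506.1 CPM in Input. Of 9 microglial genes 9 were lower in Positive, as were 9 of 9 astrocyte, 9 of 9 oligodendrocyte and 1 of 2 neuronal genes among those that met the table's minimum in both fractions. A further 7 neuronal, 1 astrocyte and 1 oligodendrocyte genes were lower but had entered the table through Input alone, which favours a fall. The 9 microglial genes include Itgam, a gene of the gate, so the sort itself favoured its fall. Of 12 pericyte genes 10 were higher (6 without both libraries of 1227), with summed levels of 1413 to 2233 CPM in Positive and 821.4 to 940.7 CPM in Input. Among the 11 that met the table's minimum in both fractions, 9 were higher. The remaining pericyte gene had entered through Positive alone, which favours a rise. Over all genes 26.1% were called higher and 29.4% lower. Perivascular macrophage genes summed to 2047, 747 and 295.6 CPM in Positive, against 282.4, 318.5 and 241.7 CPM in Input. Of these 7 genes 6 were higher, and 5 of the 6 that met the minimum in both fractions. The remaining macrophage gene had entered through Positive alone, which favours a rise. The number higher was 0 without both libraries of 1222 or of 1223, without Input 1227 and by limma. It was 1 without Positive 1222 or Input 1223, and 2 without Input 1222 or with the replicate block. The part of these cells in the results below was not tested. The 7 T cell markers listed were not analysed here.

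The 250 bases before each annotated start are shown for the 4 genes. Car4, Spock2 and Itm2a rose by log2 2.81 to 3.00 and Ivns1abp by 0.60 (below), and any link of that difference to these sequences was not tested. The sequences are RefSeq's, on build GRCm38.p6, read 5′ to 3′ along the gene's strand. Capitals mark matches to the 7 motifs searched, each on both strands: the ETS core CCGGAAG, the KLF-type CCACCC, the GC box GGGCGG, the TCF/LEF-type TCAAAG, the SOX-type ACAAAG, the forkhead core GTAAACA and the E-box CACGTG.
Car4: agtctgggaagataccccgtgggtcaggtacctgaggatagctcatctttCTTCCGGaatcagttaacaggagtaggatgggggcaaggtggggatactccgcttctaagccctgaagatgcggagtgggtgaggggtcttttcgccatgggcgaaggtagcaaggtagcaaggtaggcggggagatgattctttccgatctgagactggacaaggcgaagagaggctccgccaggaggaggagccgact
Spock2: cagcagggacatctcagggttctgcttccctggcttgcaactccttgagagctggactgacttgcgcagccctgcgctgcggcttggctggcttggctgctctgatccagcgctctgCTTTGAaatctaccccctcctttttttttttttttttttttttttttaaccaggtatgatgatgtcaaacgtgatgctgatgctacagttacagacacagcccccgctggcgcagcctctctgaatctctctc
Ivns1abp: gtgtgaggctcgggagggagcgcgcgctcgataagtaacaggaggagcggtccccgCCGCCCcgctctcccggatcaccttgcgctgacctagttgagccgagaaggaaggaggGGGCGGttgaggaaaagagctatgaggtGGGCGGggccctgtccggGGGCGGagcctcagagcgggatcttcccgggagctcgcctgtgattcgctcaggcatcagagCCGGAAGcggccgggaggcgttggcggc
Itm2a: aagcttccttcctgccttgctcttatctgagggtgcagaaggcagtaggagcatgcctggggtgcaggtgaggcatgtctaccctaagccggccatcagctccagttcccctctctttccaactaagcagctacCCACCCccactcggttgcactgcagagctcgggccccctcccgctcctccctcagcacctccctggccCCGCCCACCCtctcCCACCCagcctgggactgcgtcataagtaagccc
The windows lie at chr11:84957504-84957753 on the plus strand (Car4), chr10:60106007-60106256 on the plus strand (Spock2), chr1:151344236-151344485 on the plus strand (Ivns1abp) and chrX:107403361-107403610 on the minus strand (Itm2a). Those of Car4, Spock2 and Itm2a adjoin the gene coordinates given below. That of Ivns1abp ends at 151344485, short of the gene start of 151344498 given below. The Ivns1abp window held 25 CpG dinucleotides and 68.4% G or C, against 11, 7 and 6 CpG in Car4, Spock2 and Itm2a and a median of 6 CpG and 52% over the windows of 27025 genes. Only 9.24% of those windows held more CpG than that of Ivns1abp. It also held 4 GC boxes, a motif present in 32.9% of all windows, where Itm2a held 1 and Car4 and Spock2 none. The GC box of Itm2a overlaps 1 of its 3 CCACCC matches, a motif found in 27.7% of windows. The ETS core occurred once in Car4 and once in Ivns1abp and in 7.05% of windows. The TCF/LEF-type motif occurred once in Spock2 and in 14.1% of windows. The SOX-type motif, the forkhead core and the E-box had no match in these 4 windows and occurred in 16.5%, 3.09% and 6.05% of windows. No motif searched was shared by Car4, Spock2 and Itm2a.

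Car4, Spock2 and Itm2a were about 8, 7.52 and 7.01 times higher in sorted endothelial cells than in the suspension, while Ivns1abp was 1.51 times higher. All 4 passed the test (edgeR, quasi-likelihood; threshold 0.05 after adjustment over all genes), in a comparison where 26.1% of all genes tested were called higher in Positive and 29.4% lower, so a call alone sets none of them apart. The median log2 fold change was 2.86 over the 4 genes and 0.03 over all 10989.

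**Figure D1:**
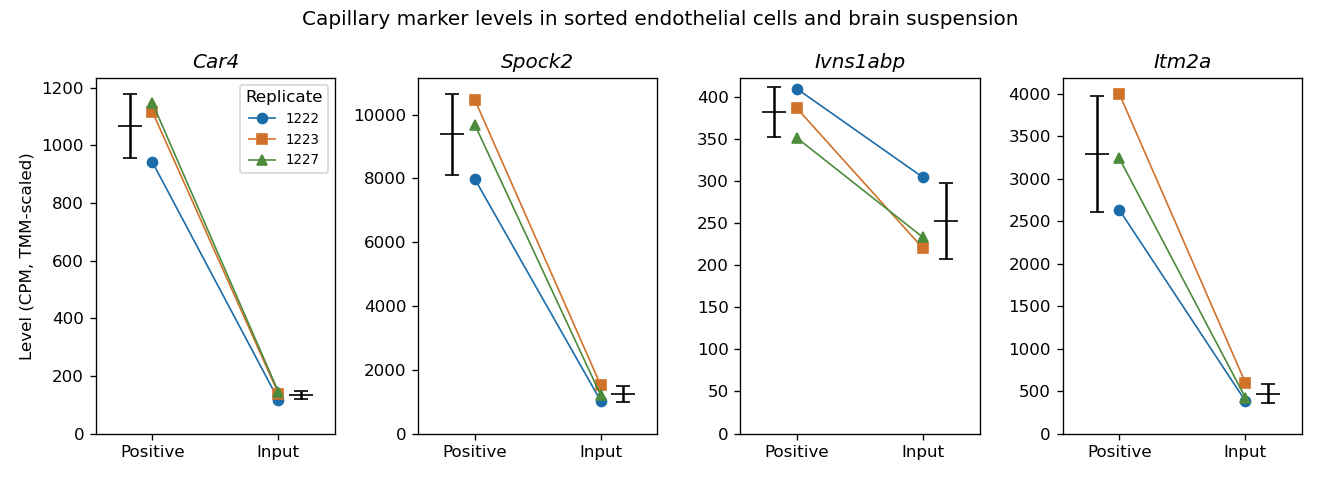
Level in CPM of Car4, Spock2, Ivns1abp and Itm2a in each Positive and Input library, with lines joining libraries of the same replicate number and black bars giving mean ± SD (n = 3). Each axis starts at 0 and has its own scale. Positive lies above Input for every gene and number, with the smallest separation for Ivns1abp.

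Car4 (chromosome 11, 84957754 to 84966054, plus strand, mm10) had 941.4, 1116 and 1147 CPM in Positive replicates 1222, 1223 and 1227, against 117.4, 138.5 and 144.5 CPM in Input. The groups did not overlap, and the lowest Positive library stood far above the highest Input library. The means were 1068 ± 111 CPM in Positive and 133.4 ± 14.2 CPM in Input (SD, n = 3 each), a log2 fold change of 3.00 ± 0.15 (SE; adjusted p = 2.94e-06 by edgeR). Within a replicate number the Positive level was 8.01, 8.06 and 7.93 times the Input level. The log2 differences within a number spanned 0.02 for Car4, less than for the other 3 genes, although Input 1223 carried only 693 estimated counts of it. Of the tested genes, 38 had a higher log2 fold change.

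Spock2 (chromosome 10, 60106257 to 60133913, plus strand) had 7986, 10473 and 9691 CPM in Positive and 1022, 1517 and 1203 CPM in Input. Its mean of 9383 ± 1272 CPM in Positive ranked 2 among all genes, against 1248 ± 250 CPM and rank 55 in Input. The log2 fold change was 2.91 ± 0.20 (adjusted p = 7.69e-06, edgeR), and 68 genes had a higher value. Within a replicate number the ratio was 7.81, 6.90 and 8.05. All 3 Positive libraries were thus far above all 3 Input libraries, and the spread inside each fraction (13.6% of the mean in Positive, 20.1% in Input) was small beside the difference.

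Itm2a (chromosome X, 107397195 to 107403360, minus strand) had 2633, 3999 and 3240 CPM in Positive and 384.9, 600.7 and 424.1 CPM in Input. It varied most between libraries of the 4 genes, by 20.8% of its mean in Positive and 24.5% in Input, and the fractions still did not overlap. The log2 fold change was 2.81 ± 0.23 (adjusted p = 1.82e-05, edgeR), and 99 genes had a higher one. Within a replicate number its Positive level was 6.84, 6.66 and 7.64 times that of Input.

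Ivns1abp (chromosome 1, 151344498 to 151364445, plus strand) had 409.7, 386.5 and 351.3 CPM in Positive and 304.5, 220.2 and 233.2 CPM in Input. The lowest Positive library was above the highest Input library by a small margin. The means were 382.5 ± 29.4 CPM in Positive and 252.6 ± 45.4 CPM in Input, a log2 fold change of 0.60 ± 0.16 (adjusted p = 0.0108, edgeR). Within a replicate number the ratio was 1.35, 1.76 and 1.51. Of the tested genes 2510 had a higher log2 fold change, and 77.2% had a lower one. The call was lost without both libraries of replicate 1223 (log2 0.50, adjusted p = 0.0691) and without both of 1227 (log2 0.60, adjusted p = 0.0786). With scaling to library size alone the adjusted p was 0.0492 (log2 0.44). GENCODE annotates an antisense gene over 755 bases of Ivns1abp, and whether the authors counted by strand is not stated in the labels used here.

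**Figure D2:**
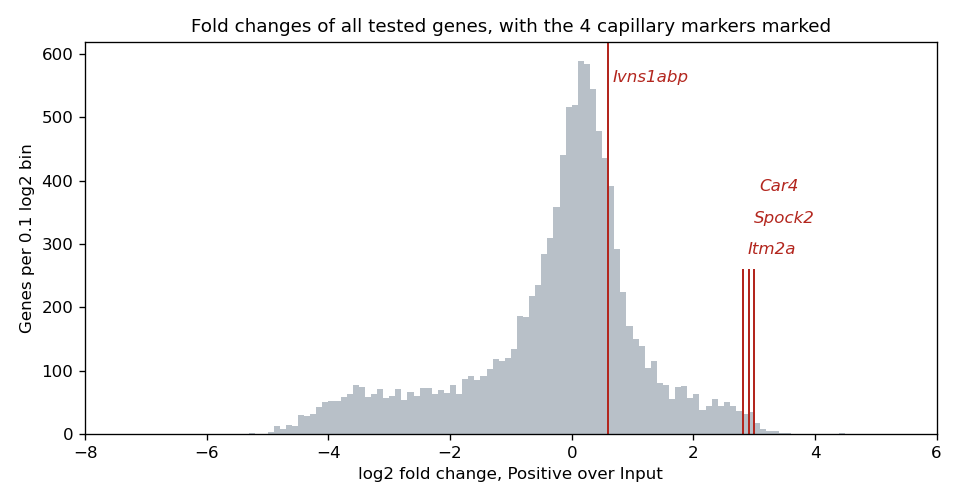
Number of genes in bins of 0.1 log2 fold change, Positive over Input, for all 10989 genes tested, with red lines at the 4 capillary markers. Car4, Spock2 and Itm2a (3.00, 2.91 and 2.81) lie at the upper edge of the distribution, and Ivns1abp (0.60) lies on the shoulder of its main peak.

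The libraries of replicate 1222 stood at an end of the range for all 4 genes. Car4, Spock2 and Itm2a were lowest in 1222 in Positive and lowest in 1222 in Input. Ivns1abp was highest in 1222 in both fractions. Spock2 and Itm2a were highest in 1223 in both fractions, and Car4 in 1227. Positive 1222 was also the Positive library with the most perivascular macrophage RNA (above), and the part of that in these levels was not tested. Without both libraries of 1222 the log2 fold changes were 2.99 (Car4), 2.88 (Spock2), 2.81 (Itm2a) and 0.69 (Ivns1abp).

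Per kilobase of exon, in CPM divided by the length of all annotated exons (GENCODE M21), the order in Positive was Itm2a at 1887 ± 392, Spock2 at 1696 ± 230, Car4 at 543.3 ± 56.4 and Ivns1abp at 70.4 ± 5.41 (SD, n = 3). In Input the order was the same, with 269.4 ± 65.9, 225.5 ± 45.3, 67.9 ± 7.24 and 46.5 ± 8.35. Itm2a was above Spock2 in each of 3 libraries of both fractions, but their ranges overlapped. The other neighbours in the order did not overlap. Among 10934 genes with an exon length, Itm2a and Spock2 ranked 4 and 5 in Positive by this level, Car4 ranked 44 and Ivns1abp 686. In Input the same genes ranked 102, 127, 651 and 1010. Car4 was thus 7.72 times Ivns1abp per kilobase in Positive and 1.46 times in Input.

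Set against endothelial genes in the same library, the levels of Car4, Spock2 and Itm2a in Positive overlapped those in Input, and those of Ivns1abp did not. The measure was the log2 of the gene's CPM minus the mean log2 CPM of 19 pan-endothelial genes, a ratio that does not depend on how libraries are scaled. For Car4 it was -0.57 ± 0.12 in Positive and -0.73 ± 0.16 in Input (SD, n = 3), for Spock2 2.56 ± 0.17 and 2.48 ± 0.13, and for Itm2a 1.04 ± 0.28 and 1.06 ± 0.17, in the same order of groups. The ranges of Positive and Input overlapped for these 3 genes (exact permutation test, two-sided, p = 0.2, 0.5 and 1, where 0.1 is the smallest that 3 against 3 allows), which does not show that the ratios were equal. Within replicates 1222, 1223 and 1227 the Positive minus Input difference was 0.07, 0.35 and 0.06 for Car4, 0.04, 0.13 and 0.08 for Spock2 and -0.15, 0.08 and 0.00 for Itm2a. It thus had 1 sign in 3 of 3 numbers for Car4 and Spock2. The 19 genes include Pecam1, a gene of the gate, and Tek, the gene of Tie2. Without Pecam1 and Tek the mean Positive minus Input difference was 0.16 for Car4, 0.08 for Spock2, -0.03 for Itm2a and -2.23 for Ivns1abp. For Ivns1abp the ratio was -1.91, -2.04 and -2.20 in Positive, against 0.59, -0.20 and 0.13 in Input. Its groups did not overlap and differed by -2.23, which is 4.69-fold lower relative to endothelial genes in the sorted cells (exact permutation test, two-sided, p = 0.1; 0.4 adjusted over the 4 genes).

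**Figure D3:**
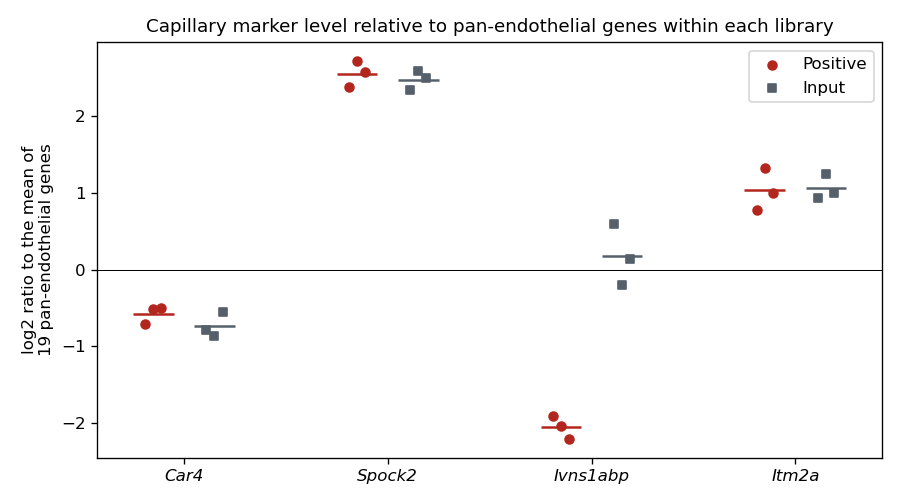
Log2 ratio of each capillary marker to the mean of 19 pan-endothelial genes in each library, with Positive as red circles, Input as grey squares and short lines at the group means (n = 3). The circles and squares overlap for Car4, Spock2 and Itm2a, and for Ivns1abp all Positive libraries lie below all Input libraries.

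The 6 pairs of the 4 genes were compared within libraries, which restates their fold changes as differences free of library scaling. The ratio of Car4 to Ivns1abp was 2.39 higher on the log2 scale in Positive than in Input, that of Spock2 to Ivns1abp 2.31 higher, and that of Ivns1abp to Itm2a was lower by -2.20. Groups did not overlap in these 3 pairs (exact permutation test, two-sided, p = 0.1 each, the smallest possible; 0.2 adjusted over 6). Car4 against Spock2, Car4 against Itm2a and Spock2 against Itm2a differed between Positive and Input by 0.08, 0.19 and 0.11, with overlapping groups (exact permutation test, p = 0.7, 0.5 and 0.3; 0.7, 0.6 and 0.45 adjusted). No pair could pass 0.05 in this design, so these p-values do not show that the fold changes were alike. Within replicates 1222, 1223 and 1227 the differences were 0.23, 0.28 and 0.05 for Car4 against Itm2a and 0.19, 0.05 and 0.08 for Spock2 against Itm2a, higher in 3 of 3 numbers, and 0.04, 0.22 and -0.02 for Car4 against Spock2. With 3 pairs the smallest exact p is 0.25.

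Other genes listed as capillary or barrier genes rose in 11 of 11 tested cases, with a median log2 fold change of 2.36 and a range from 1.46 to 3.15. The most abundant were the glucose transporter gene Slc2a1 (4798 ± 327 CPM in Positive, 937 ± 189 in Input), the efflux pump gene Abcb1a (3501 ± 27.3 and 483.7 ± 37.2) and the thyroid hormone and organic anion transporter gene Slco1c1 (2779 ± 321 and 542 ± 109). Of 19 pan-endothelial genes 19 rose (median 2.81, range 2.52 to 3.20). They include Pecam1, a gene of the gate, and Tek, the gene of Tie2, so the sort itself favoured a rise of these. The log2 fold changes of Car4, Spock2 and Itm2a lay within the pan-endothelial range and that of Ivns1abp below it. The most abundant pan-endothelial genes were Pltp, a phospholipid transfer protein gene, Cldn5, which encodes the main tight junction claudin, and the VEGF receptor gene Flt1. Arterial genes rose in 12 of 17 cases (median 1.52), and in 11 of the 16 that met the table's minimum in both fractions. The remaining arterial gene had entered through Positive alone, which favours a rise. Tm4sf1 had 623.9 ± 82.5 CPM in Positive and 153.8 ± 46.5 in Input. Unc5b did not pass (log2 0.12 ± 0.16), and Clu, also abundant in astrocytes, fell (log2 -2.25 ± 0.14). Venous genes rose in 6 of 9 cases (median 0.90), among them Vwf (839.4 ± 73.0 and 137.5 ± 44.8 CPM). All 9 venous genes met the minimum in both fractions. Over all genes 26.1% were called higher. Vcam1 and Ctsc did not pass (log2 0.01 ± 0.24 and 0.35 ± 0.31). Genes of each zone were thus called higher in the sorted cells, and this contrast does not compare zones with each other.

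Of 15 other carbonic anhydrase genes listed, 6 were tested: 1 rose, 3 fell and 2 did not pass. Of the 3 that met the table's minimum in both fractions, 1 fell (Car2) and 2 did not pass. Car2, the cytosolic form that is abundant in oligodendrocytes, had 117.2, 127.5 and 142.2 CPM in Positive, against 673.4, 913.4 and 673.5 CPM in Input, a log2 fold change of -2.55 ± 0.17 (adjusted p = 6.62e-06, edgeR). Car4 and Car2 thus exchanged places: per kilobase of exon the mean level of Car4 was 543.3 in Positive, where Car2 had 53.2, and 67.9 in Input, where Car2 had 311.1. Car10 and Car12, at 4.12 and 6.49 CPM in Positive and 69.6 and 61.9 CPM in Input, fell by 3.98 and 3.30 on the log2 scale, and both had entered the table through Input alone, which favours a fall. Car5a, a mitochondrial form, rose like Car4 (27.0 ± 2.86 CPM in Positive, 2.66 ± 0.61 in Input; log2 3.33 ± 0.27), but stood far lower and had entered the table through Positive alone, which favours a rise. Car14 (log2 -0.47 ± 0.19) and Car5b (-0.31 ± 0.30) did not pass. Car14 passed as lower with library-size scaling, without Positive 1227 and without Input 1222 (log2 -0.62, -0.64 and -0.59).

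Transporters that move bicarbonate, protons or monocarboxylates, the partners of carbonic anhydrases in pH control, were called in both directions. Of the 11 that met the table's minimum in both fractions, 3 rose, 5 fell and 3 did not pass, against 26.1% higher and 29.4% lower of all genes. A further 4 had entered through Input alone, of which 3 fell. Among those that rose were Slc16a1, the monocarboxylate transporter of brain endothelium (932.1 ± 310 CPM in Positive, 225.5 ± 75.4 in Input), and the sodium-proton exchanger gene Slc9a2 (36.1 ± 3.34 CPM in Positive, 13.5 ± 4.56 in Input). The anion exchanger gene Slc4a2 fell (95.0 ± 7.08 CPM in Positive, 302.8 ± 24.7 in Input; log2 -1.67 ± 0.13).

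Spock2 rose, and its paralogues Spock1 and Spock3 were lower in Positive. Spock1 had 4.07, 3.33 and 6.57 CPM in Positive, against 79.0, 145.2 and 104.0 CPM in Input (log2 -4.46 ± 0.32, adjusted p = 8.70e-06, edgeR). Spock3 had 3.89, 2.22 and 4.82 CPM in Positive, against 86.7, 152.6 and 98.1 CPM in Input (log2 -4.81 ± 0.31, adjusted p = 5.77e-06, edgeR). Both paralogues had passed the table's minimum in Input alone, which favours a fall. Per kilobase of exon, Spock2 stood at 1696 in Positive where Spock1 and Spock3 stood at 0.56 and 0.60, and at 225.5 in Input where they stood at 13.1 and 18.6. Spock2 was therefore the main testican transcript in both fractions. In the wider SPARC family Sparc, a matrix glycoprotein gene of vessels, rose (5693 ± 1688 CPM in Positive, 2537 ± 156 in Input; log2 1.17 ± 0.21), Sparcl1 (log2 -0.27 ± 0.19) and Fstl1 (-0.38 ± 0.22) did not pass, and Smoc1, which like Spock1 and Spock3 had entered through Input alone, fell. Without Input 1223, Sparcl1 and Fstl1 passed as lower (log2 -0.43 and -0.59), making 5 falls of 6 in place of 3, and Fstl1 also did so without both libraries of 1223 (log2 -0.60).

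Among matrix proteoglycans, metalloproteinases and their inhibitors, 15 of the 23 tested met the table's minimum in both fractions, and of these 6 rose, 8 fell and 1 did not pass. The other 8 fell and had entered through Input alone, which favours a fall. Over all genes 26.1% were called higher and 29.4% lower. The 6 that rose are near that share of the 23 tested, and above it among the 15. The share that fell was above that of all genes by either count. The basement membrane proteoglycan genes Hspg2 and Agrn rose with Spock2 (means of 989.3 and 903.5 CPM in Positive, against 160.1 and 175.3 CPM in Input; log2 2.63 ± 0.24 and 2.37 ± 0.13). The metalloproteinase inhibitor gene Timp3 (log2 1.16 ± 0.20), the membrane-anchored inhibitor gene Reck (2.41 ± 0.26), the membrane metalloproteinase gene Mmp15 (1.05 ± 0.19) and Cspg4 (0.65 ± 0.22), also a pericyte marker, rose as well. The call of Cspg4 was lost with library-size scaling, without Positive 1223 or 1227, without Input 1222 or 1227, and without both libraries of 1222 or of 1227 (log2 0.50, 0.66, 0.57, 0.51, 0.55, 0.57 and 0.46).

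The Itm2 family showed 3 different outcomes. Itm2b, which is expressed broadly, had 1847, 1995 and 1912 CPM in Positive, against 1635, 1527 and 1777 CPM in Input, and did not pass (log2 0.22 ± 0.13, adjusted p = 0.183, edgeR). Itm2c had 369.9, 408.0 and 397.2 CPM in Positive, against 809.4, 859.1 and 1037 CPM in Input, and fell (log2 -1.20 ± 0.14, adjusted p = 0.000129). Per kilobase of exon Itm2a was the highest of the 3 in Positive (1887, against 702 for Itm2b and 157.2 for Itm2c) and the lowest in Input (269.4, against 602.5 and 362). Gkn3, another BRICHOS gene and an arterial marker, did not pass (log2 0.95 ± 0.58), but did with the replicate number as a block (adjusted p = 0.0235, edgeR).

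The log2 fold change of Ivns1abp lay within the range of the kelch genes listed, which had no common direction. Of 30 such genes tested, 9 rose, 4 fell and 17 did not pass (median log2 0.14, range -1.20 to 1.56). Over all genes 26.1% were called higher and 29.4% lower, so the 9 that rose are near that share and the 4 that fell are below it. The 30 are BTB-kelch genes and also Klhdc2, Klhdc3 and Klhdc10, kelch genes outside the BTB-kelch group. The most abundant, Klhl5, rose (385.9 ± 30.5 CPM in Positive, 151.2 ± 17.6 in Input; log2 1.35 ± 0.14), as did Klhl24 and Kbtbd11 by less (log2 0.49 ± 0.14 and 0.57 ± 0.15). Klhl2, Klhl7, Klhl13 and Klhdc2 fell (log2 between -0.66 and -1.20). With library-size scaling 5 rose and 7 fell, and 5 and 4 rose without both libraries of 1222 and of 1227. Klhl24 and Kbtbd11 lost their calls with library-size scaling and without both libraries of 1222 or of 1227. Klhl24 also lost it without both of 1223, Positive 1222 or Input 1227, and Kbtbd11 without Positive 1227. The paralogue that the table names for Ivns1abp was not analysed here. Of 14 cullin ligase genes, 1 rose (Cul4a, log2 0.64 ± 0.13), 4 fell, among them Rnf7 (-0.87 ± 0.16), and 9 did not pass. The 4 that fell are near the 29.4% of all genes, and the 1 that rose is below the 26.1%. Among the 13 that met the table's minimum in both fractions, 1 rose and 3 fell. The remaining cullin ligase gene fell and had entered through Input alone, which favours a fall. Cul3, the cullin that BTB-kelch proteins bind, had 115.3 ± 4.82 CPM in Positive and 94.7 ± 16.7 in Input (log2 0.28 ± 0.15, not passed). Cand1 did not pass (log2 -0.03 ± 0.11). Cul4a lost its call without both libraries of 1227 (log2 0.63), where 0 of the 14 rose.

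The genes whose profile over the 6 libraries lay closest to each marker were found among 5399 abundant genes by the root-mean-square difference of log2 CPM centred on each gene's mean. Closest to Car4 were the amino acid transporter gene Slc7a5 (0.089), the endothelial receptor gene Tie1 (0.09) and Sox18 (0.093), an endothelial transcription factor gene. Closest to Spock2 were Rasip1 (0.045), Ctla2a (0.06) and the organic anion transporter gene Slc22a8 (0.075). Closest to Itm2a were Ctla2a (0.082), Spock2 (0.099) and Ramp2 (0.103), a receptor partner protein gene. Closest to Ivns1abp were Hipk1 (0.031), Brd3 (0.041) and Dnmt1 (0.043), which encode nuclear proteins. The distance of Ivns1abp from the other 3 markers was 1.17 to 1.23, and these 3 lay 0.099 to 0.225 apart. The distance takes in the difference between the fractions, so it largely restates the fold changes given above. Those of Hipk1, Brd3 and Dnmt1 were log2 0.61, 0.57 and 0.56. Slc7a5 and Slc22a8 were also on the list of other capillary genes.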

How the data were processed

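RNA was sequenced with a directional kit from 3 Positive and 3 Input libraries. The deposited table holds estimated counts per gene and log2 normalised values, both made by the authors. The file headers state a minimum raw value of 50 in every library of 1 fraction or both, and all 10989 genes met it: 8509 through both fractions, 1897 through Input alone and 583 through Positive alone. The submitters' processing notes name mm10 and DESeq; aligner, counter and strand use are not given in the sources used. The deposited log2 values, which differ from log2 estimated counts by 1 factor per library and 1 constant per gene, served as an alternative.

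The estimated counts were rounded and tested in edgeR 4.0.16 (R 4.3.3) with TMM scaling, filterByExpr (minimum count 10, which removed 0 genes) and the quasi-likelihood test, fraction being the only term. Benjamini-Hochberg adjustment ran over all genes, with a threshold of 0.05. A standard error is the log2 fold change divided by the square root of F. Log2 CPM used a prior count of 2. Alternatives used DESeq2 1.42.0 and limma 3.58.1 among others. Same-numbered libraries deviated together, with correlations over genes of 0.45, 0.23 and 0.30 for 1222, 1223 and 1227. Differently numbered pairs reached at most 0.02. The numbers were therefore used to pair libraries in the values within a number and in the block alternative. The reported edgeR and 3 against 3 permutation tests did not use this pairing. With the block 3298 genes were called higher and 3482 lower, against 2870 and 3227 in the reported fit. No label ties a number to an animal. The p-values therefore cover the variation among these libraries, which may be technical. Exon lengths came from GENCODE M21 (10934 genes matched) and promoter sequences from RefSeq GRCm38.p6, where all 4 genes matched. The 4 genes and all lists were chosen with earlier results of these data known. Genes named were the 4 markers, their paralogues, up to 3 genes of highest mean level in each family or endothelial list, genes called against a list's main direction, and the 3 closest profiles among genes above the median level. The rule also takes up to 2 genes from each list of another cell type; those lists are given as counts and sums. Itgam and Smoc1 were named after their values were seen. A gene that the rule takes is not reported here.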

Additional observations from a re-analysis of the deposited data

How the results depend on the processing

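Under all 16 alternatives Car4, Spock2 and Itm2a stayed called as higher, at log2 2.85 to 3.08, 2.76 to 3.08 and 2.64 to 3.02. Ivns1abp kept its direction (0.44 to 0.75) and passed in 14 of 16; its call was lost without both libraries of 1223 (log2 0.50) or of 1227 (0.60), where 4 libraries remain. With replicate number added as a block the log2 fold changes of Car4, Spock2, Itm2a and Ivns1abp were 3.00, 2.92, 2.81 and 0.61, and 3298 genes were higher and 3482 lower; of the genes named in the report only Gkn3 changed its call. The number of all genes higher ran from 1741 (without both libraries of 1227) to 2755 when libraries were left out, and was 2165 by library size alone, where 3666 were lower and the median of all genes moved to -0.13. The setting with no filter equals the reported one. Relative to pan-endothelial genes, the difference of Itm2a ran from -0.171 to 0.105 when libraries were left out, being positive without Positive 1222 (0.105), Input 1223 (0.0717) and both of 1222 (0.0404). Car4 relative to Spock2 ran from -0.0415 (without Input 1223) to 0.156. Directions also turned for genes that had not passed. Unc5b was -0.0353 by library size alone and -0.0638 to 0.298 with libraries left out (-0.0151 without Input 1222). Vcam1 was -0.0565 with the block, -0.00128 with DESeq2 size factors, -0.152 by library size, -0.00343 by DESeq2, -0.00852 with the 10 CPM filter, and -0.414 to 0.204 with libraries left out (-0.363 without Positive 1222, -0.0388 without Input 1222). Ctsc ran from -0.130 to 0.633 (-0.0862 without both of 1222), and Cand1 from -0.0867 to 0.00214, with 0.0407 by limma. The cause was not tested. Both libraries of 1223 had the least depth.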
